A study of Mus musculus with 13 samples.

Results

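Matrix metalloproteinases, the zinc-dependent enzymes that cut collagen, elastin and other proteins of the extracellular matrix, were followed in mouse lung RNA by the genes Mmp2, Mmp3, Mmp8, Mmp9, Mmp11, Mmp12, Mmp13, Mmp14, Mmp19 and Mmp28. These 10 genes were picked by symbol from the 20270 genes of the deposited tables, which hold 23 Mmp genes in all. All 10 passed the filter on low counts and were tested. The 13 Mmp genes outside the list are described further on by their counts and ranges.

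Matrix metalloproteinases are made as inactive precursors, and a propeptide has to be cut or displaced before the active site opens. Most are secreted, while the membrane-type enzymes stay on the cell surface, and tissue inhibitors of metalloproteinases (TIMPs) and the membrane-anchored inhibitor Reck hold their activity down. In the lung they are made by fibroblasts, macrophages, neutrophils and epithelium, and they are known for matrix turnover, for the breakdown of elastin in emphysema and for the release of cytokines and growth factors. Transcript levels do not measure the active enzyme.

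RNA came from the right lower lobe of 13 mice, each sequenced as 1 library of poly(A)-selected RNA. The 4 control mice and the 5 WT bleomycin mice were C57BL/6J males of 13 weeks. By the authors' methods, control groups were given the vehicle, sterile saline, and no bleomycin. The 4 mice labelled CB1R KO were Cnr1-/-, without the gene of the cannabinoid receptor CB1R, on a C57BL/6J background, and their age is not given in the sources used here. WT and CB1R KO bleomycin mice were taken 14 days after a single oropharyngeal dose of 1 U/kg of bleomycin, which injures the epithelium and is followed by fibrosis. Untreated CB1R KO mice were not analysed here, so the effect of the deletion alone cannot be told apart from its effect after bleomycin. Values are listed in the order of the mouse numbers in the labels, which is 3, 21, 24 and 26 for control, 4, 2, 5, 4-B2 and 7 for WT bleomycin, and 8, 9, 10 and 11 for CB1R KO bleomycin.

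The authors' values are estimated counts, here scaled to CPM (counts relative to the total of the library), and TPM, which are also scaled for transcript length and alone serve to compare 1 gene with another. Of the 13 libraries, 12 held 14615904 to 16662580 estimated counts and CB1R KO library 11 held 53463884. Markers of type II alveolar cells, which define lung tissue, summed to 11706 CPM or more in every library. Cnr1 was counted in every library, with 27 to 69 estimated counts in control, 50 to 110 in WT bleomycin and 41 to 188.1 in the libraries labelled CB1R KO. Cnr1 was not called between the CB1R KO-labelled and WT bleomycin libraries (log2 fold change -0.53, with an SE of 0.284, adjusted p = 0.367, edgeR). Which part of the gene these reads came from is not given in the files, so its level does not bear out the label, and CB1R KO below means the libraries that carry that label. Control libraries 3 and 26 stood apart in their neutrophil markers, with 634 and 575 summed CPM against 141 and 164 in control libraries 24 and 21, and results that rest on them are given with and without them. Both were also the higher controls for striated muscle markers (Myh6, Actc1, Tnnt2, Myl7, Ckm and Acta1), at 989 and 1541 against 708 and 629 CPM. The same held for adipocyte markers (Adipoq, Plin1, Cidec, Fabp4 and Lep), at 94.9 and 128 against 33.6 and 42.2 CPM. Fewer cells of a type and less RNA per cell cannot be told apart in whole-lobe RNA.

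In the mouse 10 Mmp genes lie next to each other on mouse chromosome 9, in the order Mmp13, Mmp12, Mmp1b, Mmp3, Mmp1a, Mmp10, Mmp8, Mmp27, Mmp20 and Mmp7, and 4 of them, Mmp13, Mmp12, Mmp3 and Mmp8, are among the 10 genes followed here. The bases just before their annotated starts are shown because the genes of this cluster differ in this stretch and also differed in how they moved with bleomycin. Each line holds the 130 bases before the start, 5′ to 3′ on the strand of the gene, from RefSeq on build GRCm38.p6. The capitals mark TGANTCA, the letters bound by the AP-1 transcription factors, and TATAAA, the TATA box.
Mmp13: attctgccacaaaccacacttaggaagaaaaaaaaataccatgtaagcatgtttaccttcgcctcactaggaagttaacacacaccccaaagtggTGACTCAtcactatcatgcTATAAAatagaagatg
Mmp12: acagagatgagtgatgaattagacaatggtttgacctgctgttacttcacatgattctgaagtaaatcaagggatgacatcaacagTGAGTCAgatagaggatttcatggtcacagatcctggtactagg
Mmp3: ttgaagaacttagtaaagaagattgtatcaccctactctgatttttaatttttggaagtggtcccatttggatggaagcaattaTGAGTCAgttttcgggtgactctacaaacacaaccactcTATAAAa
Mmp10: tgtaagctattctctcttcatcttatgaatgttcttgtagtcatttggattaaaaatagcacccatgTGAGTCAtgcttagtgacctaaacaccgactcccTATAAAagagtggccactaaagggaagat
Mmp8: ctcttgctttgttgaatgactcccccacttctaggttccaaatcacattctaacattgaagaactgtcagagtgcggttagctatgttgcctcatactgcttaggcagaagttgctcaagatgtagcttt

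All 5 lie on the plus strand. The windows are chr9:7272384-7272513 for Mmp13, chr9:7347244-7347373 for Mmp12, chr9:7445692-7445821 for Mmp3, chr9:7502212-7502341 for Mmp10 and chr9:7558299-7558428 for Mmp8. Counted back from -1, the last base before the start, the AP-1 letters began at -35 in Mmp13, -44 in Mmp12, -46 in Mmp3 and -63 in Mmp10. TATAAA began at -16 in Mmp13, -7 in Mmp3 and -29 in Mmp10. Mmp12 has a pair of annotated starts, and the window shown is that of the start nearer the 3′ end, while the window of the other start, chr9:7344267-7344396, held neither motif. Mmp8 and Mmp27 held neither motif in their windows.

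Both strands were searched, and overlap between the motifs was allowed. Of the 10 clustered genes, 8 held TGANTCA and 7 held TATAAA in this window of any annotated start, and 7 held both. Mmp7, like Mmp12, has a pair of annotated starts, and its window at chr9:7692211-7692340 held neither motif. Of all 32851 promoter entries, counted by start and not by gene, 3.70% held TGANTCA and 6.83% held TATAAA in a window of the same length. Of the 8 Mmp genes on other chromosomes with an entry, Mmp21 held TATAAA and 0 held TGANTCA. Promoters were matched for 7 of the 10 genes followed here, and Mmp2, Mmp9 and Mmp19 were not matched. A match of letters is a description and does not show that a factor was bound in these lungs.

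**Figure D1:**
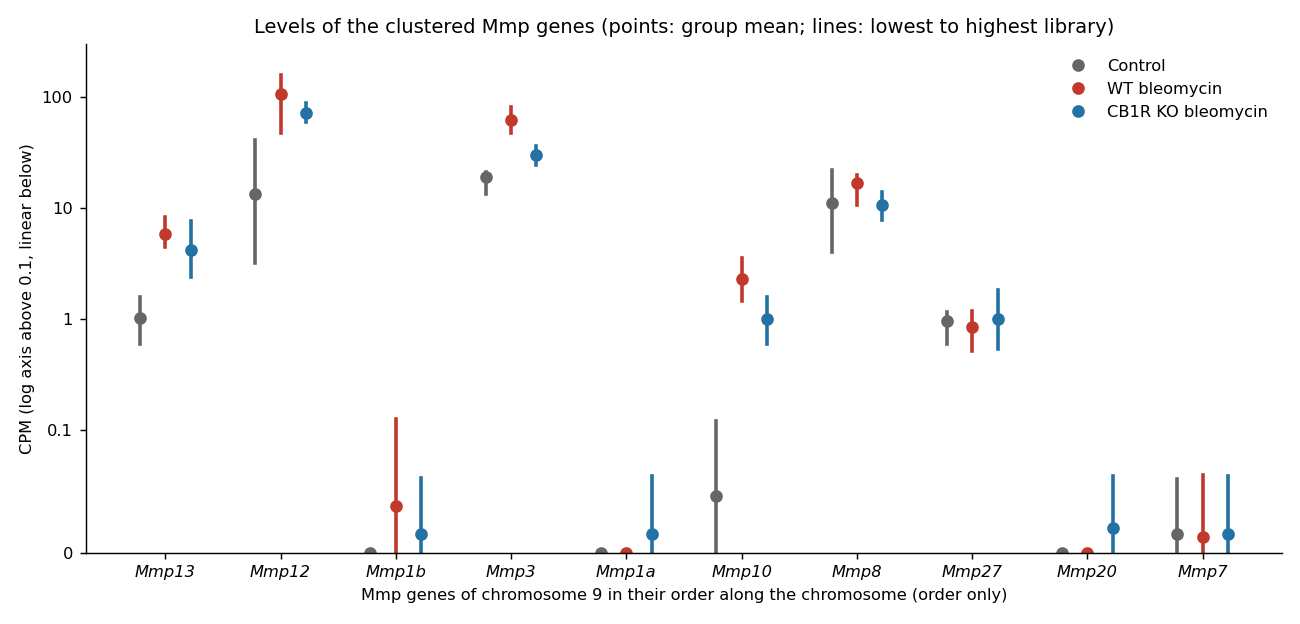
CPM of the 10 Mmp genes of chromosome 9 in their order along the chromosome, with a point for the group mean and a line from the lowest to the highest library (log axis above 0.1 CPM, linear below). Mmp13, Mmp12, Mmp3 and Mmp10 sit higher in every bleomycin library than in every control library, whereas Mmp8 and Mmp27 overlap and Mmp1a, Mmp1b, Mmp20 and Mmp7 stay close to 0.

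The first comparison asked which of these genes move with bleomycin in WT lungs. By edgeR's quasi-likelihood test (Benjamini-Hochberg adjusted p under 0.05), 6 of the 10 genes were raised in WT bleomycin over control lungs, where 25% of the 15315 genes tested were called higher. Another 2 of the 10 were lower, where 23.9% of all genes tested were called lower. The 6 higher genes were Mmp2, Mmp3, Mmp12, Mmp13, Mmp14 and Mmp19, the 2 lower genes were Mmp9 and Mmp28, and Mmp8 and Mmp11 did not pass. The median log2 fold change of the 10 genes was 1.68, beside -0.01 over all genes tested. Every WT bleomycin library was above every control library for the 6 higher genes and below every control library for the 2 lower genes. Of all genes tested, 21.5% lay wholly above and 18.8% wholly below control in the same way.

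The comparison of the CB1R KO-labelled libraries with WT bleomycin asked whether the deletion changes these genes after bleomycin. Mmp28 was higher, 1 of 10 where 0.359% of all genes tested were called higher, and Mmp3 was lower, 1 of 10 where 0.62% were called lower. Without adjustment 3 of the 10 genes had a p under 0.05, the other being Mmp14, where 17% of all genes tested did. Mmp28 lay wholly above and Mmp3 wholly below the WT bleomycin libraries, as 2.5% and 3.1% of all genes tested did. The median log2 fold change of the 10 genes was -0.22, beside 0 over all genes tested.

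In CB1R KO bleomycin against control lungs, 7 of the 10 genes were higher, where 19% of all genes tested were called higher, and 2 were lower, where 16.3% were called lower. The 7 were the 6 genes raised in WT bleomycin lungs and Mmp11, and the 2 were again Mmp9 and Mmp28. This comparison shares its control libraries with the comparison of WT bleomycin and control, so the calls of the pair are not independent of each other. With control libraries 3 and 26 left out, 7 genes were higher and 2 lower in WT bleomycin, and 7 higher and 1 lower in CB1R KO bleomycin lungs, both against control (edgeR).

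**Figure D2:**
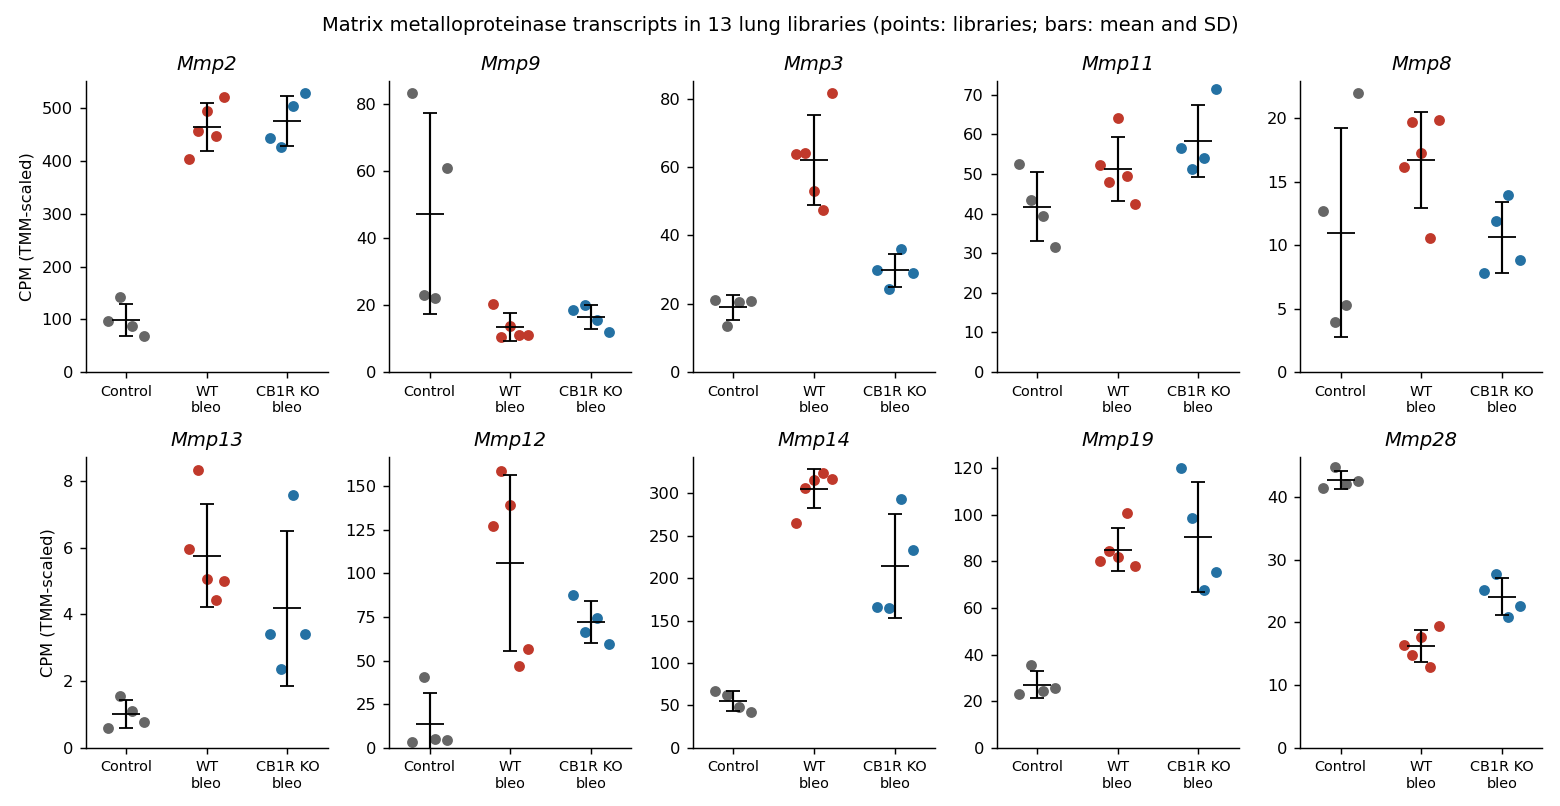
CPM of the 10 genes in each of the 13 libraries, with 1 panel a gene, points for libraries and bars for the group mean and SD; the lower SD bar of Mmp12 in control runs below the axis. In the panels of Mmp3 and Mmp28 the 4 CB1R KO points lie between the control and the WT bleomycin points with no overlap, while in those of Mmp2 and Mmp19 the bleomycin groups mix.

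The gelatinases Mmp2 and Mmp9 cut denatured collagen and the type IV collagen of basement membranes, and they moved in opposite directions with bleomycin. Mmp2, gelatinase A, which fibroblasts make and which Mmp14 activates at the cell surface, was at 96.7, 142, 86.8 and 69.3 CPM in control lungs. It was at 403, 458, 495, 448 and 521 CPM in WT bleomycin and at 444, 427, 504 and 529 CPM in CB1R KO bleomycin lungs. The lowest bleomycin library was far above the highest control library, while the libraries of the 2 bleomycin groups were intermixed. Mmp2 rose 4.72-fold in WT bleomycin lungs (log2 fold change 2.24, with an SE of 0.165, adjusted p = 1.96e-07, edgeR) and 4.83-fold in CB1R KO bleomycin lungs (adjusted p = 6.91e-07, edgeR), both against control. Between CB1R KO-labelled and WT bleomycin its log2 fold change was 0.03, with a 95% interval from -0.27 to 0.33 (adjusted p = 0.933, edgeR).

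Mmp9, gelatinase B, is stored in the granules of neutrophils and is also made by macrophages. It was at 83.1, 22.8, 22.1 and 61.0 CPM in control lungs, at 20.4, 10.6, 13.7, 11.1 and 11.2 CPM in WT bleomycin lungs and at 18.6, 19.9, 15.4 and 11.9 CPM in CB1R KO bleomycin lungs. Control libraries 3 and 26 were high, whereas control libraries 21 and 24 were only just above WT bleomycin library 4 and CB1R KO library 9. In the fit, Mmp9 was 3.53-fold lower in WT bleomycin lungs than in control (log2 fold change -1.82, with an SE of 0.354, adjusted p = 0.000696, edgeR) and 2.90-fold lower in CB1R KO bleomycin lungs (adjusted p = 0.00556, edgeR). With control libraries 3 and 26 left out, an alternative chosen after the data were seen, the log2 fold change was -0.75 in WT bleomycin (adjusted p = 0.0265, edgeR) and -0.46 in CB1R KO bleomycin lungs (adjusted p = 0.199, edgeR), so that the latter call was lost. CB1R KO and WT bleomycin libraries overlapped (log2 fold change 0.28, 95% interval -0.43 to 0.99, adjusted p = 0.734, edgeR).

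Mmp8, the collagenase of neutrophil granules, was also high in control libraries 3 and 26. It was at 12.7, 3.97, 5.32 and 22.0 CPM in control lungs, at 16.2, 19.7, 17.2, 10.6 and 19.9 CPM in WT bleomycin lungs and at 7.78, 11.9, 13.9 and 8.80 CPM in CB1R KO bleomycin lungs. Control library 26 was the highest of all 13 and control library 21 the lowest, so the groups overlapped. Mmp8 did not pass the test in any comparison, with a log2 fold change of 0.61 for WT bleomycin over control (with an SE of 0.384, adjusted p = 0.207, edgeR) and -0.66 in CB1R KO-labelled against WT bleomycin (95% interval -1.41 to 0.08, adjusted p = 0.397, edgeR). With control libraries 3 and 26 left out, it was called higher in WT bleomycin (log2 fold change 1.85, adjusted p = 0.000384, edgeR) and in CB1R KO bleomycin lungs (log2 fold change 1.19, adjusted p = 0.0115, edgeR), both against control. With control library 26 alone left out, the log2 fold change was 1.18 in WT bleomycin (adjusted p = 0.0113, edgeR).

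The neutrophil markers were set beside Mmp8 and Mmp9. The list held S100a8, S100a9, Csf3r, Cxcr2, Retnlg, Ly6g, Ngp, Ltf and Camp, 7 of which were tested. Their summed level was 634, 164, 141 and 575 CPM in control lungs, 159 to 243 CPM in WT bleomycin lungs and 108 to 256 CPM in CB1R KO bleomycin lungs. Csf3r, the receptor of granulocyte colony-stimulating factor, was at 201 and 170 CPM in control libraries 3 and 26 and at 59.0 and 51.7 CPM in control libraries 21 and 24. In WT bleomycin lungs against control, 5 of the 7 were lower and 1 was higher, with a median log2 fold change of -1.89. Of all genes tested, 23.9% were called lower and 25% higher. These marker calls include control libraries 3 and 26 and are not given without them. In control libraries 21 and 24, S100a8 was at 22.5 and 20.8 CPM, S100a9 at 40.8 and 29.9 CPM and Retnlg at 19.6 and 11.4 CPM. Those values overlapped the WT bleomycin ranges of 11.4 to 26.4, 15.2 to 36.2 and 14.0 to 18.4 CPM. Csf3r and Cxcr2 of both control libraries lay above every WT bleomycin library. Ltf (lactoferrin), which airway glands also make, stood out from the list, at 70.4 to 139 CPM in WT bleomycin and 8.35 to 63.2 CPM in control lungs. It was a large part of the sum in WT bleomycin libraries 4, 2, 5, 4-B2 and 7, at 70.4 of 207, 76.7 of 159, 92.7 of 169, 139 of 231 and 129 of 243 CPM. In control libraries 3, 21, 24 and 26 it was 34.6 of 634, 8.35 of 164, 12.7 of 141 and 63.2 of 575 CPM. Ly6g and Camp stayed under 1.5 CPM in every library. Between CB1R KO-labelled and WT bleomycin 0 of the 7 passed, with 1 at an unadjusted p under 0.05, where 17% of all genes tested were (edgeR).

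Over the 13 libraries, deviations from the group mean of log2 CPM correlated between Mmp9 and the neutrophil list at r = 0.88 and between Mmp8 and that list at r = 0.71. Mmp8 and Mmp9 correlated with each other at r = 0.69. Mmp9 and Mmp8 also correlated with the striated muscle markers, at r = 0.653 and 0.645, and with the adipocyte markers, at r = 0.53 and 0.58. These values describe 13 libraries and lean on control libraries 3 and 26, and the part of neutrophils or other cells in the change of either gene with bleomycin was not tested.

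**Figure D3:**
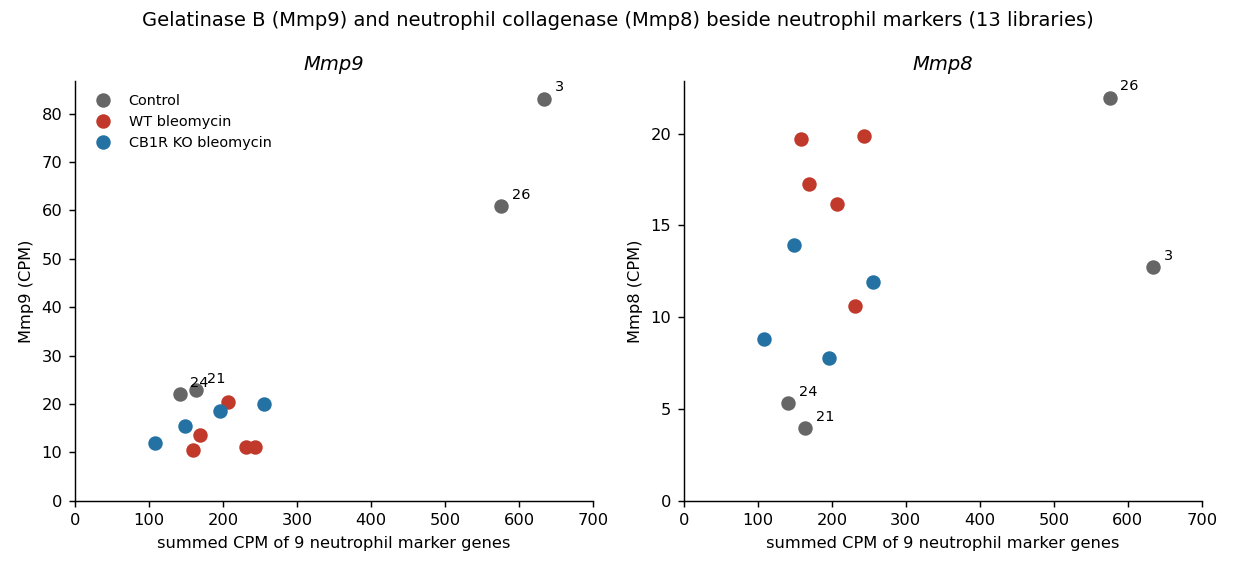
Mmp9 (left) and Mmp8 (right) in CPM against the summed CPM of 9 neutrophil markers, with 1 point a library and the control libraries named by number. Control libraries 3 and 26, at 634 and 575 CPM of markers, hold the highest Mmp9 of the 13, and on the right they lie above the other control libraries.

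The stromelysins cut proteoglycans, fibronectin and laminin. Mmp3, stromelysin 1, which fibroblasts make and which can activate other matrix metalloproteinases, was at 21.0, 13.3, 20.4 and 20.8 CPM in control lungs. It was at 63.9, 64.0, 53.1, 47.4 and 81.8 CPM in WT bleomycin lungs and at 29.9, 24.4, 36.2 and 28.9 CPM in CB1R KO bleomycin lungs. The groups did not overlap, and all 4 CB1R KO libraries lay above the control and below the WT bleomycin libraries. Mmp3 was 3.28-fold higher in WT bleomycin lungs than in control (log2 fold change 1.72, with an SE of 0.172, adjusted p = 2.44e-06, edgeR) and 1.58-fold higher in CB1R KO bleomycin lungs (adjusted p = 0.0104, edgeR). In the CB1R KO-labelled libraries it was 2.08-fold lower than in WT bleomycin (log2 fold change -1.06, with an SE of 0.165, adjusted p = 0.0177, edgeR). Without CB1R KO library 8, 9 or 11 the adjusted p of this difference was 0.0679, 0.0704 and 0.0581 (edgeR), at log2 fold changes of -1.06, -0.97 and -1.04.

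Mmp11, stromelysin 3, is cut to its active form inside the cell by furin. It was at 52.4, 43.4, 39.5 and 31.5 CPM in control, 52.3, 47.9, 64.2, 49.4 and 42.5 CPM in WT bleomycin and 56.5, 51.3, 54.2 and 71.5 CPM in CB1R KO bleomycin lungs. The ranges of the groups overlapped. Against control, the log2 fold change was 0.30 in WT bleomycin (with an SE of 0.146, adjusted p = 0.107, edgeR) and 0.49 in CB1R KO bleomycin lungs (with an SE of 0.153, adjusted p = 0.0224, edgeR). The latter call was lost without control library 24 (adjusted p = 0.0571, edgeR), control library 26 (0.0709) or CB1R KO library 11 (0.0778), and the former was gained without control library 3 (log2 fold change 0.43, adjusted p = 0.0257, edgeR). The difference between CB1R KO-labelled and WT bleomycin was 0.19 (95% interval -0.09 to 0.47, adjusted p = 0.527, edgeR).

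Mmp13, collagenase 3, is the collagenase that rodents use where humans rely on MMP1, and it is best known from cartilage and bone. It was the rarest of the 10, at 0.594, 1.56, 1.09 and 0.773 CPM in control lungs, which is 10 to 26 estimated counts a library. It was at 5.95, 8.34, 5.06, 4.43 and 5.00 CPM in WT bleomycin lungs and at 3.40, 2.35, 7.58 and 3.40 CPM in CB1R KO bleomycin lungs. The bleomycin libraries were all above the control libraries, and CB1R KO library 10 stood among the highest WT bleomycin libraries while the other 3 were below them all. Mmp13 was 5.70-fold higher in WT bleomycin lungs than in control (log2 fold change 2.51, with an SE of 0.373, adjusted p = 7.48e-05, edgeR) and 4.11-fold higher in CB1R KO bleomycin lungs (adjusted p = 0.00102, edgeR). Between CB1R KO-labelled and WT bleomycin, the log2 fold change was -0.47 (95% interval -1.09 to 0.15, adjusted p = 0.473, edgeR). The 5 markers of cartilage and bone, Acan, Col2a1, Sp7, Ibsp and Bglap, summed to 0.238 CPM or less in control and to 1.56 CPM or less in WT bleomycin lungs, and 0 of the 5 passed the count filter.

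Mmp12, the macrophage elastase, varied more between mice than the other 9 genes in control and in WT bleomycin lungs, though not in CB1R KO bleomycin lungs. It was at 3.15, 40.7, 5.19 and 4.25 CPM in control lungs, at 127, 159, 139, 47.0 and 56.8 CPM in WT bleomycin lungs and at 87.5, 66.1, 74.6 and 59.5 CPM in CB1R KO bleomycin lungs. Control library 21 stood far above the other control libraries and came close to WT bleomycin library 4-B2. The same library was highest of the controls for the alveolar macrophage markers, at 1983 summed CPM against 730 to 821 CPM, and for Arg1, an enzyme of alternatively activated macrophages, at 48.1 CPM against 1.78 to 1.86 CPM. The part of those cells in its Mmp12 level was not tested. WT bleomycin libraries 4, 2 and 5, whose labels are in lower case, were at 127 to 159 CPM, whereas 4-B2 and 7, whose labels have capitals, were at 47.0 and 56.8 CPM, and the labels do not say what this spelling stands for. The labels of the CB1R KO libraries are all in lower case, so the spelling is not spread evenly over the groups.

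Mmp12 was 7.90-fold higher in WT bleomycin lungs than in control (log2 fold change 2.98, with an SE of 0.636, adjusted p = 0.0014, edgeR) and 5.36-fold higher in CB1R KO bleomycin lungs (log2 fold change 2.42, with an SE of 0.643, adjusted p = 0.00948, edgeR). Without control library 21 these log2 fold changes were 4.66 and 4.10. With control libraries 3 and 26 both left out, the change in CB1R KO bleomycin lungs was 1.64 and no longer passed (adjusted p = 0.0769, edgeR). Against WT bleomycin, the CB1R KO-labelled libraries differed by -0.56 (95% interval -1.65 to 0.53, adjusted p = 0.648, edgeR), and all 4 lay inside the WT bleomycin range. That range takes in both label spellings, and all 4 lay below the WT bleomycin libraries with lower-case labels. Over the 26 alternatives this difference ranged from -1.03 to -0.37 and did not pass in any.

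Mmp14, the membrane-type enzyme MT1-MMP, cuts fibrillar collagen at the cell surface and activates Mmp2 there. It was at 67.1, 61.9, 47.5 and 42.1 CPM in control lungs, at 265, 306, 316, 324 and 317 CPM in WT bleomycin lungs and at 166, 164, 293 and 234 CPM in CB1R KO bleomycin lungs. Every bleomycin library exceeded every control library, and 3 of the 4 CB1R KO libraries were below all WT bleomycin libraries, with library 10 inside their range. Mmp14 was 5.59-fold higher in WT bleomycin lungs than in control (log2 fold change 2.48, with an SE of 0.181, adjusted p = 1.81e-07, edgeR) and 3.92-fold higher in CB1R KO bleomycin lungs (adjusted p = 4e-06, edgeR). In the CB1R KO-labelled libraries the log2 fold change against WT bleomycin was -0.51 (95% interval -0.84 to -0.18, unadjusted p = 0.00801, adjusted p = 0.146, edgeR), which did not pass. Without CB1R KO library 10 it was -0.70 and passed (adjusted p = 0.022, edgeR).

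Mmp14 moved between mice with matrix genes and macrophage markers, and against fibroblast and alveolar epithelial markers. Deviations from the group mean correlated at r = 0.87 with a list of 12 substrates and at r = 0.88 with 10 markers of monocyte-derived macrophages (13 libraries). With the type II alveolar cell and fibroblast markers given with Mmp28 below they correlated at r = -0.70 and -0.65. For type I alveolar cell markers r was -0.73. Over all lists set beside Mmp14, r ran from -0.73 to 0.88. Those macrophage markers summed to 197 to 309 CPM in control, 1061 to 1166 CPM in WT bleomycin and 810, 679, 1122 and 898 CPM in CB1R KO bleomycin lungs, so that library 10 was again nearest to WT bleomycin. Of the 10 markers, 9 were higher in WT bleomycin than in control, beside 25% of all genes tested. Between CB1R KO-labelled and WT bleomycin 0 of the 10 passed and 4 had an unadjusted p under 0.05, beside 17% of all genes tested (edgeR). Their part in the Mmp14 level was not tested.

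Mmp19, which cuts basement membrane proteins and is made by macrophages and epithelium, was at 23.2, 35.5, 24.1 and 25.6 CPM in control lungs. It was at 80.0, 84.4, 81.8, 101 and 78.0 CPM in WT bleomycin lungs and at 120, 98.7, 67.8 and 75.3 CPM in CB1R KO bleomycin lungs. The bleomycin groups lay clear of control and overlapped with each other, CB1R KO libraries 8 and 10 being the highest and the lowest of the 9. Mmp19 was 3.14-fold higher in WT bleomycin (log2 fold change 1.65, with an SE of 0.168, adjusted p = 2.73e-06, edgeR) and 3.33-fold higher in CB1R KO bleomycin lungs (adjusted p = 6.88e-06, edgeR) than in control. Against WT bleomycin, the CB1R KO-labelled libraries differed by 0.09 (95% interval -0.22 to 0.39, adjusted p = 0.814, edgeR).

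Mmp28, epilysin, is a secreted enzyme activated by furin and known from epithelium. Like Mmp9 it was highest in control lungs, but there it varied little, at 41.4, 44.8, 42.1 and 42.5 CPM. It was at 16.4, 14.8, 17.7, 12.9 and 19.4 CPM in WT bleomycin lungs and at 25.2, 27.7, 20.9 and 22.6 CPM in CB1R KO bleomycin lungs. The groups did not overlap, and the CB1R KO libraries lay between the other two. Mmp28 was 2.62-fold lower in WT bleomycin lungs than in control (log2 fold change -1.39, with an SE of 0.108, adjusted p = 2.96e-07, edgeR) and 1.77-fold lower in CB1R KO bleomycin lungs (adjusted p = 7.87e-05, edgeR). In the CB1R KO-labelled libraries it was 1.48-fold higher than in WT bleomycin (log2 fold change 0.565, with an SE of 0.109, adjusted p = 0.0307, edgeR). This call was lost in 10 of 26 alternatives, 6 of which left out a single library, with log2 fold changes from 0.49 to 0.66 over all of them. Without WT bleomycin library 2, 5 or 4-B2 the adjusted p was 0.0657, 0.0565 and 0.0668, and without CB1R KO library 8, 9 or 11 it was 0.105, 0.113 and 0.0752 (edgeR).

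Markers of type II alveolar cells were, like Mmp28, lower in every WT bleomycin library than in any other, with 18825 to 22296 summed CPM in control, 11706 to 13382 CPM in WT bleomycin and 13621 to 21440 CPM in CB1R KO bleomycin lungs. Of the 7 tested, 6 were lower in WT bleomycin than in control, and 3 were higher in CB1R KO-labelled than in WT bleomycin lungs (edgeR). Of all genes tested, 23.9% and 0.359% were called so. Within groups, Mmp28 correlated with the type II markers at r = 0.39 and with a list of 9 fibroblast markers at r = 0.84 (deviations of log2 CPM, 13 libraries). Those fibroblast markers summed to 2027 to 2183 CPM in control, 1434 to 1826 CPM in WT bleomycin and 1518 to 2099 CPM in CB1R KO bleomycin lungs. Gene by gene they went both ways, with 2 of the 9 called higher and 3 lower in WT bleomycin than in control (edgeR). The shares over all genes tested were 25% and 23.9%, and the median log2 fold change of the 9 was 0.005. The part of either cell type in the Mmp28 level was not tested.

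**Figure D4:**
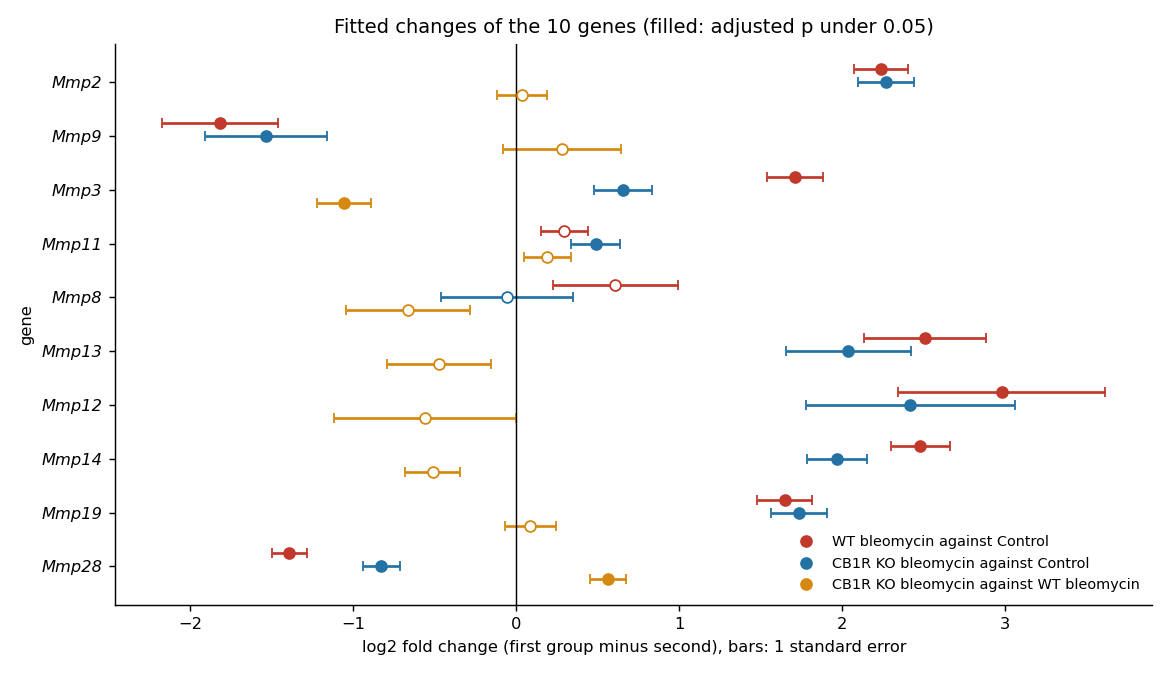
Log2 fold changes of the 10 genes in the 3 comparisons, with bars of 1 SE and filled points where the adjusted p was under 0.05. The 2 comparisons with control share the control libraries, and in CB1R KO-labelled against WT bleomycin only Mmp3, at -1.06, and Mmp28, at 0.565, are filled.

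Of the 13 Mmp genes outside the list, 6 passed the count filter, and by edgeR 3 of them were higher and 1 was lower in WT bleomycin than in control lungs. The shares over all genes tested were 25% and 23.9%. Mmp10, stromelysin 2, was at 0 to 0.12 CPM in control (0 to 2 estimated counts a library), 1.44 to 3.53 CPM in WT bleomycin (23 to 51.1 estimated counts) and 0.589 to 1.55 CPM in CB1R KO bleomycin lungs. It was thus at or near 0 in the control libraries and counted in all 9 bleomycin libraries, and it was called higher in WT bleomycin (adjusted p = 7.45e-06, edgeR) and in CB1R KO bleomycin lungs (adjusted p = 0.000282, edgeR). Mmp23 (log2 fold change 0.86) and Mmp25, a membrane-type enzyme of leukocytes (0.81), were the other genes called higher in WT bleomycin. Mmp15, the membrane-type enzyme MT2-MMP, was lower, at 166 to 246 CPM in control, 102 to 148 CPM in WT bleomycin and 131 to 215 CPM in CB1R KO bleomycin lungs (log2 fold change -0.67 for WT bleomycin over control, with an SE of 0.149, adjusted p = 0.00195, edgeR). Between CB1R KO-labelled and WT bleomycin, 0 of the 6 passed in edgeR, and 3 had an unadjusted p under 0.05, beside 17% of all genes tested.

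Along the chromosome 9 cluster, 4 of the 6 genes tested, Mmp13, Mmp12, Mmp3 and Mmp10, were called higher in WT bleomycin lungs, beside 25% of all genes tested, and Mmp8 and Mmp27 were not called. These 4 are the tested genes of the cluster with TGANTCA in a window before a start, as printed above, though Mmp12 has it at only 1 of its pair of starts. Mmp8 and Mmp27 have no match in their windows. Mmp1a, Mmp1b, Mmp20 and Mmp7 carry the same letters and were at 0.125 CPM or less in every library. Outside the cluster, Mmp14, Mmp23 and Mmp25 were called higher in WT bleomycin lungs without TGANTCA in their windows. Mmp11, which was not called, and Mmp15 and Mmp28, which were lower, had no match either. With 6 tested genes in 1 cluster and starts taken from annotation, the pattern along the cluster stands as a description.

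Of 9 inhibitors, 5 were higher and 1 was lower in WT bleomycin than in control lungs, and 3 were lower in CB1R KO-labelled than in WT bleomycin lungs (edgeR). The shares over all genes tested were 25%, 23.9% and 0.62%. The median log2 fold changes of the inhibitors in the 2 comparisons were 1.75 and -0.55. Timp1, the inducible inhibitor of most matrix metalloproteinases, was at 3.27 to 9.73 CPM in control, 96.0 to 145 CPM in WT bleomycin and 30.1 to 76.4 CPM in CB1R KO bleomycin lungs. It rose with bleomycin (log2 fold change 4.58, with an SE of 0.353, adjusted p = 2.76e-07, edgeR) and was lower in CB1R KO-labelled than in WT bleomycin lungs (log2 fold change -1.46, with an SE of 0.285, adjusted p = 0.0314, edgeR). Timp2, Timp3 and Timp4 did not pass in either of these comparisons, with log2 fold changes of 0.04, -0.23 and 0.07 for WT bleomycin over control. Reck was lower in WT bleomycin lungs than in control (log2 fold change -1.29, adjusted p = 1.37e-06, edgeR), at 41.6 to 60.8 CPM against 108 to 135 CPM.

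Serpine2, which blocks plasminogen activators and thrombin, had log2 fold changes of 1.75 for WT bleomycin over control and -0.55 for CB1R KO-labelled over WT bleomycin lungs (adjusted p = 1.37e-07 and 0.0416, edgeR). It was at 115 to 135 CPM in control, 349 to 441 CPM in WT bleomycin and 220 to 360 CPM in CB1R KO bleomycin lungs, so that the bleomycin groups overlapped. Of 11 activators 6 were tested, 5 of them higher and 1 lower in WT bleomycin than in control lungs, and 2 were lower in CB1R KO-labelled than in WT bleomycin lungs (edgeR). Over all genes tested these shares were 25%, 23.9% and 0.62%.

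Among the activators, Furin, the convertase that cuts the propeptides of Mmp11, Mmp14 and Mmp28, was at 148 to 153 CPM in control, 211 to 275 CPM in WT bleomycin and 177 to 211 CPM in CB1R KO bleomycin lungs. Its highest CB1R KO library was just under its lowest WT bleomycin library, and the log2 fold change between these groups was -0.36 (with an SE of 0.076, adjusted p = 0.0411, edgeR). Plat, tissue-type plasminogen activator, was at 51.3 to 59.6, 114 to 127 and 72.7 to 94.2 CPM in these groups (log2 fold change -0.47 between CB1R KO-labelled and WT bleomycin, adjusted p = 0.0187, edgeR). Ctsk, cathepsin K, was raised in WT bleomycin over control lungs by a log2 fold change of 2.10 (adjusted p = 7.39e-06, edgeR). Cma1, the mast cell chymase, was the lower gene (log2 fold change -1.32, adjusted p = 0.000693, edgeR), at 1.90 CPM or less in every library.

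Of 8 surface partners, 6 were raised in WT bleomycin over control lungs, beside 25% of all genes tested. Between CB1R KO-labelled and WT bleomycin 0 of the 8 passed and 3 had an unadjusted p under 0.05, beside 17% of all genes tested (edgeR). Lcn2, a secreted lipocalin that binds Mmp9, was at 73.7 to 118 CPM in control, 323 to 469 CPM in WT bleomycin and 391 to 407 CPM in CB1R KO bleomycin lungs (log2 fold change 2.20 for WT bleomycin over control, adjusted p = 8.31e-08, edgeR). It thus rose where Mmp9 itself fell. Cd44, which holds Mmp9 and Mmp14 at the cell surface, and Itgav, an integrin subunit, had log2 fold changes of 0.86 and 0.76 for WT bleomycin over control.

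Of 12 substrates, 11 were raised in WT bleomycin over control lungs, beside 25% of all genes tested, with a median log2 fold change of 2.65. Spp1 (osteopontin), Tnc (tenascin C) and Col4a1, a chain of basement membrane collagen, had the lowest p of them, with log2 fold changes of 3.81, 4.43 and 1.57. In the libraries labelled CB1R KO all 12 had a log2 fold change below 0 against WT bleomycin, with a median of -0.41, but 1 passed and 8 had an unadjusted p under 0.05, beside the 17% of all genes tested (edgeR). That gene was Fn1 (fibronectin), at 596 to 691 CPM in control, 4052 to 5535 CPM in WT bleomycin and 2176 to 4269 CPM in CB1R KO bleomycin lungs (log2 fold change -0.86, with an SE of 0.177, adjusted p = 0.0389, edgeR). With DESeq2 the counts called lower between these groups were 6 of 12 substrates and 5 of 9 inhibitors, whereas edgeR with the label spelling as a term gave 0 and 1. Over all genes, DESeq2 called 370 of 19823 lower and edgeR with the spelling term 32 of 15315.

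The counts of inhibitors, activators and substrates called lower in CB1R KO-labelled than in WT bleomycin lungs changed when single libraries were left out (edgeR). Over all genes tested the number called lower changed too. It went from 95 to 390 without CB1R KO library 10, and to 8, 1 and 2 without CB1R KO library 8, 9 or 11. It was 136 without WT bleomycin library 4, and 48, 17, 23 and 27 without WT bleomycin library 2, 5, 4-B2 or 7. Without control library 21 or 24 it was 76 and 64. The inhibitors numbered 5 without CB1R KO library 10 and 1 without WT bleomycin library 2, 5, 4-B2 or 7 or CB1R KO library 8, 9 or 11. The activators numbered 0 without CB1R KO library 8, 9 or 11 and 1 without control library 21 or 24 or WT bleomycin library 2, 5, 4-B2 or 7. The substrates numbered 5 without CB1R KO library 10, 2 without WT bleomycin library 4 and 0 without control library 21 or 24, WT bleomycin library 2, 5, 4-B2 or 7, or CB1R KO library 8, 9 or 11.

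TPM values, which allow for transcript length, showed which of the 10 genes made up most of their transcripts. Summed over the 10, they were at 234, 252, 173 and 175 TPM in control lungs, at 713, 798, 766, 602 and 685 TPM in WT bleomycin lungs and at 615, 550, 679 and 627 TPM in CB1R KO bleomycin lungs. The sum was thus higher in every bleomycin library than in every control library, and the bleomycin groups overlapped. Mmp2 had the highest mean in each group, at 23.1% ± 4.14 (SD, n = 4) of the sum in control lungs. Its share was 33.0% ± 3.74 (SD, n = 5) with bleomycin in WT and 39.8% ± 2.25 (SD, n = 4) in CB1R KO lungs.

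Mmp14 came next in each group, at 23.8 to 41.5 TPM in control, 165 to 190 TPM in WT bleomycin and 102 to 182 TPM in CB1R KO bleomycin lungs. Its range overlapped that of Mmp2 in control lungs (32.6 to 69.3 TPM) but not in WT bleomycin (211 to 258 TPM) or CB1R KO bleomycin lungs (219 to 269 TPM). Mmp12 stood at rank 3 in both bleomycin groups, at 56.8 to 205 TPM in WT bleomycin, a range that took in all of Mmp14, and at 73.2 to 116 TPM in CB1R KO bleomycin lungs. In control lungs Mmp11 was at rank 3 (21.7 to 38.5 TPM), Mmp9 at rank 4 (10.4 to 40.4 TPM) and Mmp28 at rank 5 (19.99 to 21.4 TPM). The range of Mmp9 overlapped those of Mmp11 and Mmp28, while every Mmp11 value was above every Mmp28 value.

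The lower ranks changed with bleomycin. Mmp9 fell to rank 9 in WT bleomycin lungs, at 5.15 to 10.2 TPM, and Mmp28 to rank 8, at 6.15 to 9.44 TPM. These ranges overlap with each other and with that of Mmp8 (6.55 to 13.01 TPM). Mmp3 was at rank 4 in WT bleomycin lungs, at 55.5 ± 12.1 TPM (SD, n = 5), and at rank 6 in CB1R KO bleomycin lungs, at 27.4 ± 4.56 TPM (SD, n = 4). Mmp13 was last in every group, at 0.344 to 0.880 TPM in control and 2.46 to 4.95 TPM in WT bleomycin lungs.

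**Figure D5:**
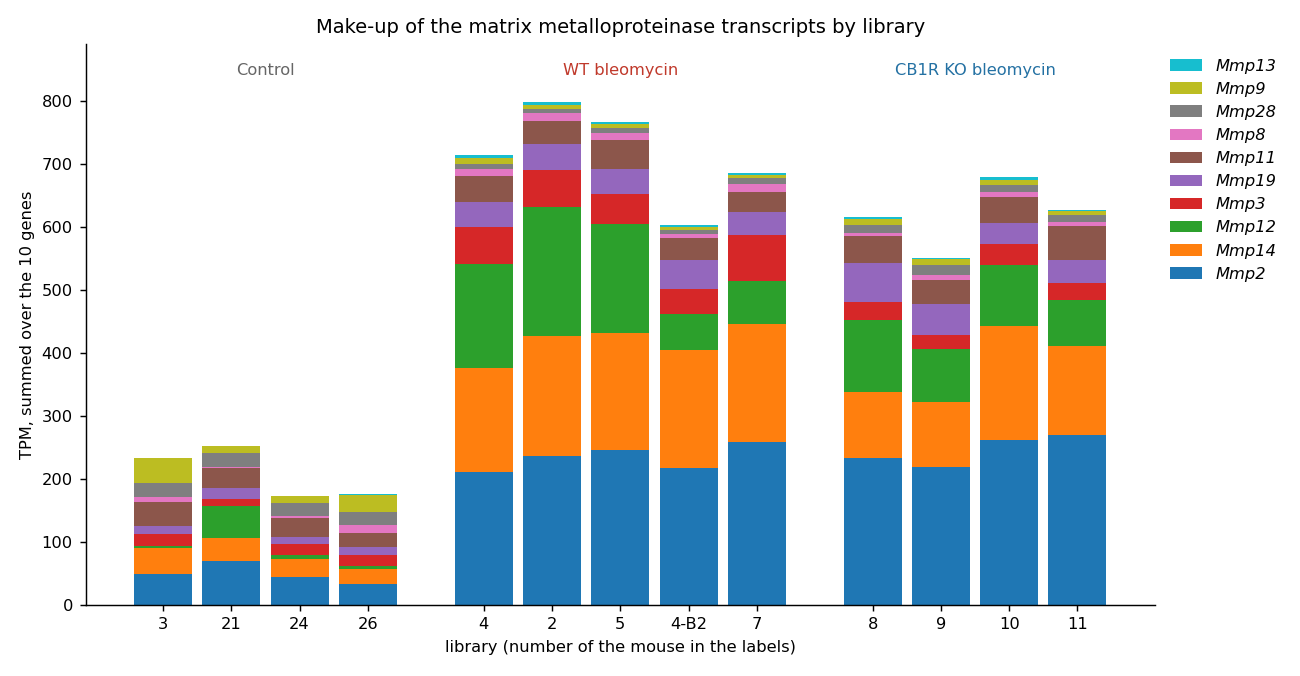
TPM of the 10 genes stacked by library and ordered from the bottom by their mean in WT bleomycin lungs, with 1 bar a library. Mmp2 and Mmp14 form the base of every bleomycin bar, Mmp12 is wide in WT bleomycin libraries 4, 2 and 5 and narrow in 4-B2 and 7, and Mmp9 is widest in control libraries 3 and 26.

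Between mice of the same group the 10 genes did not vary as a block. The SD of log2 CPM was largest for Mmp12 (1.66), Mmp8 (1.12) and Mmp9 (0.98) in control lungs. Deviations from the group mean correlated between Mmp2 and Mmp14 at r = 0.67 and between Mmp12 and Mmp13 at r = 0.61, and between Mmp3 and Mmp19 at r = -0.69 (13 libraries). Mmp12 correlated with the alveolar macrophage markers at r = 0.70 and Mmp2 with those of monocyte-derived macrophages at r = 0.74. These are descriptions over 13 libraries that share depth and tissue makeup.

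Over all 13 libraries, groups included, the genes tested whose log2 CPM was most like each member were taken by Pearson's r, which then mainly follows the difference between groups. For Mmp2 they were Trem2 (0.99), Psrc1 and Adamts2, and for Mmp14 they were Dbn1 (0.997), Ckap4 and Col1a1. For Mmp9 they were Csf3r (0.975), S100a9 (0.94) and Cxcr2 (0.935), all of them on the neutrophil list. For Mmp12 they were H2-M2 (0.97), Ctsk (0.97) and Dcstamp (0.965), and for Mmp13 they were Nrp2 (0.98), Axl and Cdca5. For Mmp19 they were Lgals3 (0.98), Ndnf and Atp11a, and for Mmp28 they were Scube2 (0.99), Ppp1r14a and Pla2r1. Mmp3 was most like Kirrel (0.965), Mmp11 most like Uros (0.945), and Mmp8 had the weakest nearest gene, Apol6 (0.92).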

How the data were processed

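Lung RNA-seq libraries of 13 mice were used, in groups taken from the genotype and treatment labels, with 1 library a mouse. The authors quantified paired-end reads with kallisto on the Ensembl release 105 mouse transcripts (GRCm39) and summed the estimated counts and the TPM of protein-coding transcripts by gene symbol. The deposited estimated counts are not normalized, and 70.5% of them are not whole. They were rounded here. The deposited TPM values served for levels between genes and for limma. A TPM column that names no sample (1 in all) was not used.

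Genes were filtered with filterByExpr, which left 15315, scaled by TMM and fitted over all 13 libraries with 1 coefficient a group and no covariates by the quasi-likelihood test of edgeR 4.0.16 in R 4.3.3, at a Benjamini-Hochberg adjusted p of 0.05. CPM values are scaled by TMM, and log2 CPM used a prior count of 2. Standard errors are the log2 fold change over the square root of F, and 95% intervals take them as normal. P-values set the difference between groups against the spread between mice within groups, as fitted over all 13 libraries. Each library held 14615904 estimated counts or more, at which genes near 1 CPM, such as Mmp10 and Mmp13, rest on few counts.

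Members and gene lists were chosen with earlier results of these data known. Besides the members and Cnr1, the genes named are those of the other lists that passed between CB1R KO and WT bleomycin, the 3 with the lowest p in each direction between WT bleomycin and control, the 3 most like each member, and marker genes. A gene that this rule names is not reported here. Timp2, Timp3, Timp4 and single markers were named after their values were seen. Alternatives were other filters and normalizations, DESeq2 1.42.0, limma 3.58.1 on log2(TPM + 1) and log2(TPM + 0.1), 2 groups only, library 11 thinned, label spelling as a term, lower-case labels only, each library left out, and control libraries 3 and 26 left out. Promoters came from RefSeq tables of another build than the authors', so only sequences and gene order were used from them. Python 3.11.15, pandas 2.3.3, numpy 2.4.6 and matplotlib 3.10.9 made tables and plots.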

Additional observations from a re-analysis of the deposited data

Results flagged for a closer look

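Each group of 4 or 5 libraries was searched for a library far from the others by Dixon's test, for the log2 CPM of each of the 10 genes and for the total count, 33 groups in all. Chance alone flags about 1 in 20 groups, and 3 were found. Mmp3 in control library 21 was at a log2 CPM of 3.75, below the other control libraries at 4.36 to 4.402. Mmp14 in WT bleomycin library 4 was at 8.05, below the other WT bleomycin libraries at 8.26 to 8.34. The total of CB1R KO library 11 was 53463884 estimated counts, against 15252571 to 16605421 in the other CB1R KO libraries.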

How the results depend on the processing

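Over 26 alternatives, 13 of which left out 1 library each, the 30 log2 fold changes of the 10 genes kept their direction and their side of the threshold in 739 of 780 refits. The number of genes called higher in CB1R KO against WT bleomycin went from 1 to 0 with limma on log2(TPM + 1) without a filter, with edgeR on 2 groups, with label spelling as a term and with lower-case labels only, and ranged from 0 to 1 when single libraries were left out. Over all genes tested it went from 55 to 5, 20, 9 and 1 in these fits, in that order. It ranged from 0 to 263 over the left-out libraries. The number of the 10 genes called lower went to 0 with limma without a filter and with lower-case labels only, and ranged from 0 to 2 over the left-out libraries. Over all genes tested it went from 95 to 20 and 5 in these fits, and ranged from 1 to 390 over the left-out libraries. The number of the 10 genes lower in CB1R KO bleomycin against control went from 2 to 1 with control libraries 3 and 26 removed.

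Directions turned for 3 results. Mmp8 in CB1R KO bleomycin against control, at -0.06, was at 0.23 with limma on log2(TPM + 1), with a filter and without (0.231), 0.30 on log2(TPM + 0.1), 0.17 with label spelling as a term, 0.52 with lower-case labels only and 1.19 with control libraries 3 and 26 removed, and at -0.34 to 0.52 over the left-out libraries. Mmp2 in CB1R KO against WT bleomycin was at -0.035 with label spelling as a term and at -0.017 to 0.082 over the left-out libraries, and Mmp19 at -0.076 to 0.203. The cause of these changes was not tested. No paired analysis was possible because the groups compared share no replicate numbers. With 4 or 5 mice a group, a difference of the size of the standard errors given cannot be shown.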
